A study of Homo sapiens with 12 samples.

Results

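The proteasome genes of T84 cells, a human colon carcinoma line that grows as an intestinal epithelium, are described here across saline of pH 6.0 and pH 7.4. They are the protein-coding genes of the count table whose symbol starts with PSMA, PSMB, PSMC, PSMD, PSME, PSMF or PSMG and a digit, together with POMP. The rule took 50 genes of 48162 identifiers, and 48 of the 50 passed edgeR's default filter on low counts. PSMA8, the alpha subunit known from the testis, had 0 counts in all 12 libraries, which allows a level of up to 0.118 to 0.210 CPM (counts scaled to a library's total), counting error only. PSMB11, the catalytic subunit of the thymus, lay between 0 and 0.211 CPM and was not tested. The genes fall into 8 alpha-ring genes, 6 beta-ring genes, 6 genes of the immunoproteasome, the thymoproteasome and the PA28 activator, 9 genes of the base, 8 of the lid, 8 of assembly factors, 3 of other activators and an inhibitor, and 2 that only share the symbol. The last are PSMC3IP and PSME3IP1, which encode binding partners and no subunit. PSMB3 was not analysed here.

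The study held confluent T84 cells in Hanks buffered saline in place of medium and sequenced RNA from 12 libraries. The groups are pH 6.0 for 6 h, pH 7.4 for 6 h, pH 6.0 for 3 h and pH 7.4 for 3 h, with 3 libraries each. All groups share the cell line and the saline, and no group in growth medium was measured. The labels number the libraries of a group but name no separate cultures. The p-values therefore reflect the spread among these libraries, and that spread may be technical. As in any bulk RNA measurement, fewer cells with a transcript and less transcript per cell cannot be told apart.

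Library totals ran from 13912532 to 24331032 counts. All 12 intestinal epithelium markers passed the filter, led by KRT8, whose highest group mean was 4521 CPM. The summed fibroblast markers lay between 8.42 and 12.2 CPM in pH 6.0 libraries at 6 h, and between 8.88 and 35.0 CPM in pH 7.4 libraries at 6 h. Summed leukocyte markers stayed between 8.21 and 12.4 CPM, with MS4A1 at 0 and 7 of 10 under 1 CPM, and summed endothelial markers between 9.55 and 13.7 CPM. Mitochondrial genes took 7.14% to 7.40% of counts at pH 6.0 and 7.97% to 8.97% at pH 7.4 after 6 h. After 3 h the shares were 7.46% to 9.24% at pH 6.0 and 7.81% to 10.6% at pH 7.4. Whether these shares had a part in the results on proteasome genes was not tested.

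The 26S proteasome degrades proteins tagged with ubiquitin. Its barrel-shaped 20S core is built of outer alpha rings, which gate the entry, and inner beta rings, whose subunits PSMB5, PSMB6 and PSMB7 hold the active sites. The 19S particle on top has a base, with the ring of PSMC ATPases that unfolds substrates, and a lid, which removes the ubiquitin chain. In immune and mucosal cells, interferon signals exchange the active subunits for PSMB8, PSMB9 and PSMB10, which form the immunoproteasome, and raise the PA28 activator made of PSME1 and PSME2. Proteasome genes are known to be raised together by the transcription factor NFE2L1 when the proteasome is inhibited, through the antioxidant response element in their promoters.

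Most of these genes moved in one direction at 6 h, as described below, and their promoters were searched for 3 motifs on both strands, in RefSeq windows of GRCh38.p14 that run from 250 bases before to 50 bases after the start. Of the 50 genes, 44 matched a window. The core of the antioxidant response element, TGACNNNGC (reverse complement GCNNNGTCA), stood in 12 of the 44 windows, or 27.3%, against 13.6% of 27305 promoters of the same length. CCAAT (reverse complement ATTGG) stood in 45.5% against 35.7% of all promoters, and GAANNTTC, a pair of heat shock element units and its own reverse complement, in 2.27% against 6.87%. TGACNNNGC stood in 4 of 7 windows of assembly factors, 3 of 6 of the immunoproteasome subgroup, 2 of 8 of the base and 2 of 8 of the lid. It also stood in 1 of 3 of the other activators and inhibitor. In the alpha ring it stood in 0 of 7, and in the beta ring in 0 of 3, where 3 more genes matched no window. Among genes called higher at pH 6.0 after 6 h 25.9% held TGACNNNGC, and among those not called 28.6%. The median log2 fold change between pH 6.0 and pH 7.4 at 6 h was 0.26 over the 12 tested genes with TGACNNNGC and 0.39 over 30 without it. A match describes letters in the window and is not evidence of a bound factor. Of the 7 genes called higher that hold the motif, the windows of the 3 in the immunoproteasome and PA28 subgroup are shown as examples, because the results below return to that subgroup. The other 4 are PSMD9, PSMG1, PSMD1 and PSMC4, and PSMD5, which fell, holds it too. They lie on the minus strand of chr14:24146561-24146860 (PSME2), the plus strand of chr14:24135944-24136243 (PSME1) and the plus strand of chr6:32853942-32854241 (PSMB9), and capitals mark the motif.
PSME2: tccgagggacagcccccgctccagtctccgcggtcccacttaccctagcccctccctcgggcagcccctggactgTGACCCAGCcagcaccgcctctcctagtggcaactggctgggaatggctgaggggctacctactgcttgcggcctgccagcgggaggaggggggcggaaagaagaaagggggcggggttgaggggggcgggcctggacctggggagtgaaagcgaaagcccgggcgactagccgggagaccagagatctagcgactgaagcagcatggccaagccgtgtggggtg
PSME1: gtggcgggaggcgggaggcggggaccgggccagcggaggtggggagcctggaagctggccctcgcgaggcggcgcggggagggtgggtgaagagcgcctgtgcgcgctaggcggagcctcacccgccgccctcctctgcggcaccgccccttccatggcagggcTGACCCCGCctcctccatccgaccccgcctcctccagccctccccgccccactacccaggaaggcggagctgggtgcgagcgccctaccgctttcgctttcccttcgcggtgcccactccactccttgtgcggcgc
PSMB9: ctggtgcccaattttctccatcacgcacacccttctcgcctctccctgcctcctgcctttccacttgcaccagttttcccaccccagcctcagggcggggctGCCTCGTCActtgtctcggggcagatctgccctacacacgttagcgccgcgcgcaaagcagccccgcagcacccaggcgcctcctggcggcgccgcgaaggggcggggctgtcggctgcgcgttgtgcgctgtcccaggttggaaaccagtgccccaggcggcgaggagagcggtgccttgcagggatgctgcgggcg
PSME1 and PSME2 start 10416 bases apart on opposite strands. PSMB9 starts 488 bases from TAP1, the peptide transporter gene on the other strand, and 9513 bases from PSMB8.

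At 6 h most proteasome genes were higher at pH 6.0 than at pH 7.4. Of the 48 tested genes, 32 rose and 1 fell at an edgeR adjusted p under 0.05, where 21.9% of all 15630 tested genes rose, 25.1% fell and 47.0% changed in either direction. The median log2 fold change of pH 6.0 over pH 7.4 was 0.39 for the proteasome genes and 0.00 for all genes. In 36 of the 48 the 3 pH 6.0 libraries did not overlap the 3 pH 7.4 libraries, against 56.6% of all genes. Their summed level was 4687 ± 175 CPM at pH 6.0 and 3757 ± 220 CPM at pH 7.4 (SD, n = 3 each). Changes over all genes went with gene length: the median ran from 0.27 in the second-shortest of 10 equal length classes, which holds 15 of the 48, to -0.32 in the longest class. With a length offset for each library 30 rose and 2 fell, with a median of 0.29. Of all genes 24.2% rose and 22% fell with that offset, with a median of 0.04.

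All 7 tested alpha-ring genes rose, by a median log2 fold change of 0.53. PSMA4 had 171, 153 and 156 CPM in the pH 6.0 libraries, against 117, 111 and 101 CPM in the pH 7.4 libraries (log2 fold change 0.55 ± 0.09, adjusted p = 2.37e-05). PSMA3 had 104, 100.0 and 101 CPM in the pH 6.0 libraries, against 78.5, 70.3 and 65.5 CPM in the pH 7.4 libraries (0.51 ± 0.09, adjusted p = 7.36e-05). In both genes every pH 6.0 library stood above every pH 7.4 library. PSMA6 had the largest fold change, at 5.37, 5.06 and 5.59 CPM in pH 6.0 libraries and 2.33, 2.20 and 2.80 CPM in pH 7.4 libraries (1.13 ± 0.23, adjusted p = 0.000379). These are 37 to 100 counts a library, so its interval is wide. PSMA5 and PSMA1 rose by 0.47 ± 0.12 and 0.53 ± 0.15 on the log2 scale. PSMA1, PSMA2 and PSMA6 stood at 6.01, 0.775 and 0.727 CPM per kilobase, against 19.4 to 185 in the other tested alpha-ring genes. Their fold changes are uncertain, as described with the levels below. PSMA2, at 34 to 92 counts a library, rose by 0.65 ± 0.22, and was no longer called without pH 7.4 replicate 2 (adjusted p = 0.0869) or 3 (adjusted p = 0.0821). PSMA7, the most abundant, was close to the threshold (0.42 ± 0.16, adjusted p = 0.0419). It missed the threshold with the length offset (adjusted p = 0.242) and with library totals alone (0.0613). It also did so without any of several libraries: pH 6.0 replicates 1 (0.0587) and 2 (0.118) and pH 7.4 replicates 1 (0.102) and 3 (0.142) at 6 h, and pH 7.4 replicate 2 at 3 h (0.076).

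Of the 6 beta-ring genes 5 rose, by a median of 0.43 on the log2 scale. PSMB1, a structural subunit, had 247, 243 and 237 CPM in the pH 6.0 libraries, against 170.5, 177 and 135 CPM in the pH 7.4 libraries (0.59 ± 0.11, adjusted p = 0.000108). PSMB7, which holds the trypsin-like site, had 129.6, 127 and 129 CPM in the pH 6.0 libraries, against 99.5, 100.0 and 84.3 CPM in the pH 7.4 libraries (0.44 ± 0.09, adjusted p = 0.000208). PSMB6, with the caspase-like site, had 52.0, 51.8 and 43.2 CPM in the pH 6.0 libraries, against 32.7, 33.1 and 28.0 CPM in the pH 7.4 libraries (0.65 ± 0.13, adjusted p = 0.00036). Each of these was higher in every pH 6.0 library than in any pH 7.4 library. PSMB5, with the chymotrypsin-like site, was the only beta-ring gene not called. It had 76.7, 70.8 and 67.4 CPM in the pH 6.0 libraries, against 64.2, 69.0 and 52.1 CPM in the pH 7.4 libraries, and its groups overlapped (0.21 ± 0.11, adjusted p = 0.125; 95% interval -0.01 to 0.43). The structural subunits PSMB2 and PSMB4 rose by 0.42 ± 0.09 and 0.38 ± 0.13. The PSMB4 call was lost without pH 7.4 replicate 1 (adjusted p = 0.077) or 3 (0.12), without pH 6.0 replicate 2 (0.0683) or 3 (0.0698), or without pH 7.4 replicate 2 of 3 h (0.0583).

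All 5 tested genes of the immunoproteasome and PA28 rose, also by a median of 0.43. PSMB9, which takes the place of PSMB6, had 62.6, 77.9 and 64.7 CPM in the pH 6.0 libraries, against 46.6, 45.3 and 41.3 CPM in the pH 7.4 libraries (0.62 ± 0.11, adjusted p = 0.000115). PSMB8, the counterpart of PSMB5, had 83.6, 99.5 and 91.1 CPM in the pH 6.0 libraries, against 72.6, 76.3 and 65.5 CPM in the pH 7.4 libraries (0.35 ± 0.11, adjusted p = 0.0131). PSMB10, the counterpart of PSMB7, had 28.9, 28.7 and 26.3 CPM in the pH 6.0 libraries, against 21.1, 23.6 and 18.9 CPM in the pH 7.4 libraries (0.40 ± 0.11, adjusted p = 0.00403). In none of the 3 did the pH groups overlap. PSME2, the PA28 beta subunit, had 132, 144 and 125 CPM in the pH 6.0 libraries, against 86.5, 86.3 and 66.9 CPM in the pH 7.4 libraries (0.74 ± 0.14, adjusted p = 0.000413). PSME1, the alpha subunit, had 159, 159.9 and 173 CPM in the pH 6.0 libraries, against 127, 137 and 100.4 CPM in the pH 7.4 libraries (0.43 ± 0.13, adjusted p = 0.0136). Both PA28 genes were higher in each pH 6.0 library. With the length offset only PSMB9 and PSME2 stayed called, at a median of 0.26 for the 5 genes, where 24.2% of all genes rose. The adjusted p was then 0.0564 for PSMB10, 0.0846 for PSMB8 and 0.0874 for PSME1. Leaving out pH 7.4 replicate 3 also ended the calls of PSMB8 (0.067) and PSME1 (0.0605), and leaving out pH 6.0 replicate 2 that of PSMB8 (0.054).

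In the base, 6 of 9 genes rose, by a median over all 9 of 0.26. PSMD4, a ubiquitin receptor, had 167, 159.7 and 159 CPM in the pH 6.0 libraries, against 116, 108 and 96.7 CPM in the pH 7.4 libraries (0.60 ± 0.09, adjusted p = 1.18e-05). The ATPase gene PSMC3 had 182, 179.9 and 165 CPM in the pH 6.0 libraries, against 141, 137 and 131 CPM in the pH 7.4 libraries (0.36 ± 0.10, adjusted p = 0.00294). The pH groups were apart in both. The other ATPase genes that rose were PSMC5 (0.30 ± 0.10), PSMC4 (0.26 ± 0.10) and PSMC6 (0.25 ± 0.10), and the scaffold gene PSMD1 rose by 0.26 ± 0.09. PSMC4 missed the threshold with the length offset (adjusted p = 0.222). With library totals alone PSMC4 (0.0696) and PSMC6 (0.0789) missed it. The calls of PSMC4, PSMC6 and PSMD1 each ended without pH 6.0 replicate 1 (0.103, 0.0607 and 0.0668 in that order), pH 7.4 replicate 2 (0.0634, 0.107 and 0.0614) or pH 7.4 replicate 3 (0.156, 0.176 and 0.0592). The ATPase genes PSMC1 and PSMC2 and the scaffold gene PSMD2 were not called, with log2 fold changes of 0.19 ± 0.09, 0.01 ± 0.09 and 0.21 ± 0.09.

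In the lid, 4 of 8 genes rose, by a median over all 8 of 0.28. PSMD8 had 111, 123 and 109 CPM in the pH 6.0 libraries, against 80.7, 86.7 and 72.6 CPM in the pH 7.4 libraries (0.52 ± 0.10, adjusted p = 0.000215). PSMD14, the deubiquitinase of the lid, had 119.6, 112 and 106 CPM in the pH 6.0 libraries, against 92.8, 82.8 and 82.1 CPM in the pH 7.4 libraries (0.39 ± 0.09, adjusted p = 0.000844). The groups did not overlap in either gene. PSMD6 and PSMD13 rose by 0.42 ± 0.10 and 0.41 ± 0.10. The genes PSMD7 and PSMD11 (0.18 ± 0.09 and 0.15 ± 0.09) and PSMD3 and PSMD12 (-0.18 ± 0.08 and -0.15 ± 0.09) were not called. With the length offset 5 lid genes rose and 1 fell, where 24.2% of all genes rose and 22% fell. With library totals alone 4 rose and 1 fell, where 19.3% of all genes rose and 27.2% fell.

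Assembly factors held the lone proteasome gene that fell with TMM factors and no length offset. PSMD5, a chaperone of the base, had 33.2, 34.1 and 31.5 CPM in the pH 6.0 libraries, against 48.0, 43.0 and 45.8 CPM in the pH 7.4 libraries (-0.47 ± 0.09, adjusted p = 0.000192). PSMD10, also a base chaperone and known as gankyrin, had 81.8, 79.3 and 86.5 CPM in the pH 6.0 libraries, against 53.2, 52.9 and 45.6 CPM in the pH 7.4 libraries (0.71 ± 0.09, adjusted p = 1.34e-06). POMP, which guides the maturation of the beta ring, had 67.9, 69.8 and 67.3 CPM in the pH 6.0 libraries, against 50.0, 45.1 and 37.5 CPM in the pH 7.4 libraries (0.63 ± 0.11, adjusted p = 9.17e-05). No pH 6.0 library overlapped a pH 7.4 library in these 3 genes, which moved in both directions. PSMG1, a chaperone of the alpha ring, rose by 0.36 ± 0.12, with an adjusted p of 0.0833 without pH 7.4 replicate 3. PSMD9, the remaining base chaperone of this subgroup, rose by 0.61 ± 0.24 at 38 to 115 counts a library. Its libraries overlapped, and the call ended with DESeq2 (adjusted p = 0.0626) and in edgeR with library totals alone (0.0542). It also ended without pH 6.0 replicate 1 (0.0754) or 2 (0.16), and without pH 7.4 replicate 1 (0.0865) or 3 (0.182). The alpha-ring chaperones PSMG2, PSMG3 and PSMG4 were not called, with log2 fold changes of -0.60 ± 0.47, -0.07 ± 0.16 and 0.16 ± 0.12. PSMG2 had only 5 to 18 counts a library.

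Of the other activators and the inhibitor, 0 of 3 were called by edgeR or by DESeq2. At an unadjusted p under 0.05 each tool had 1, PSME4. In edgeR with the length offset 1 of the 3 was called higher, where 24.2% of all genes rose. With library totals alone 1 of the 3 was called lower, where 27.2% of all genes fell. PSME3, the nuclear PA28 gamma subunit, PSME4, the activator PA200, and PSMF1, the inhibitor PI31, had log2 fold changes of 0.09 ± 0.09, -0.20 ± 0.09 and 0.15 ± 0.08. PSME4 and PSMF1 had separate pH groups all the same, in opposite directions. Of the binding partners, PSME3IP1 had 92.0, 87.3 and 93.7 CPM in the pH 6.0 libraries, against 69.4, 66.5 and 67.8 CPM in the pH 7.4 libraries (0.42 ± 0.08, adjusted p = 0.000164), and PSMC3IP was not called (-0.30 ± 0.21).

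**Figure D1:**
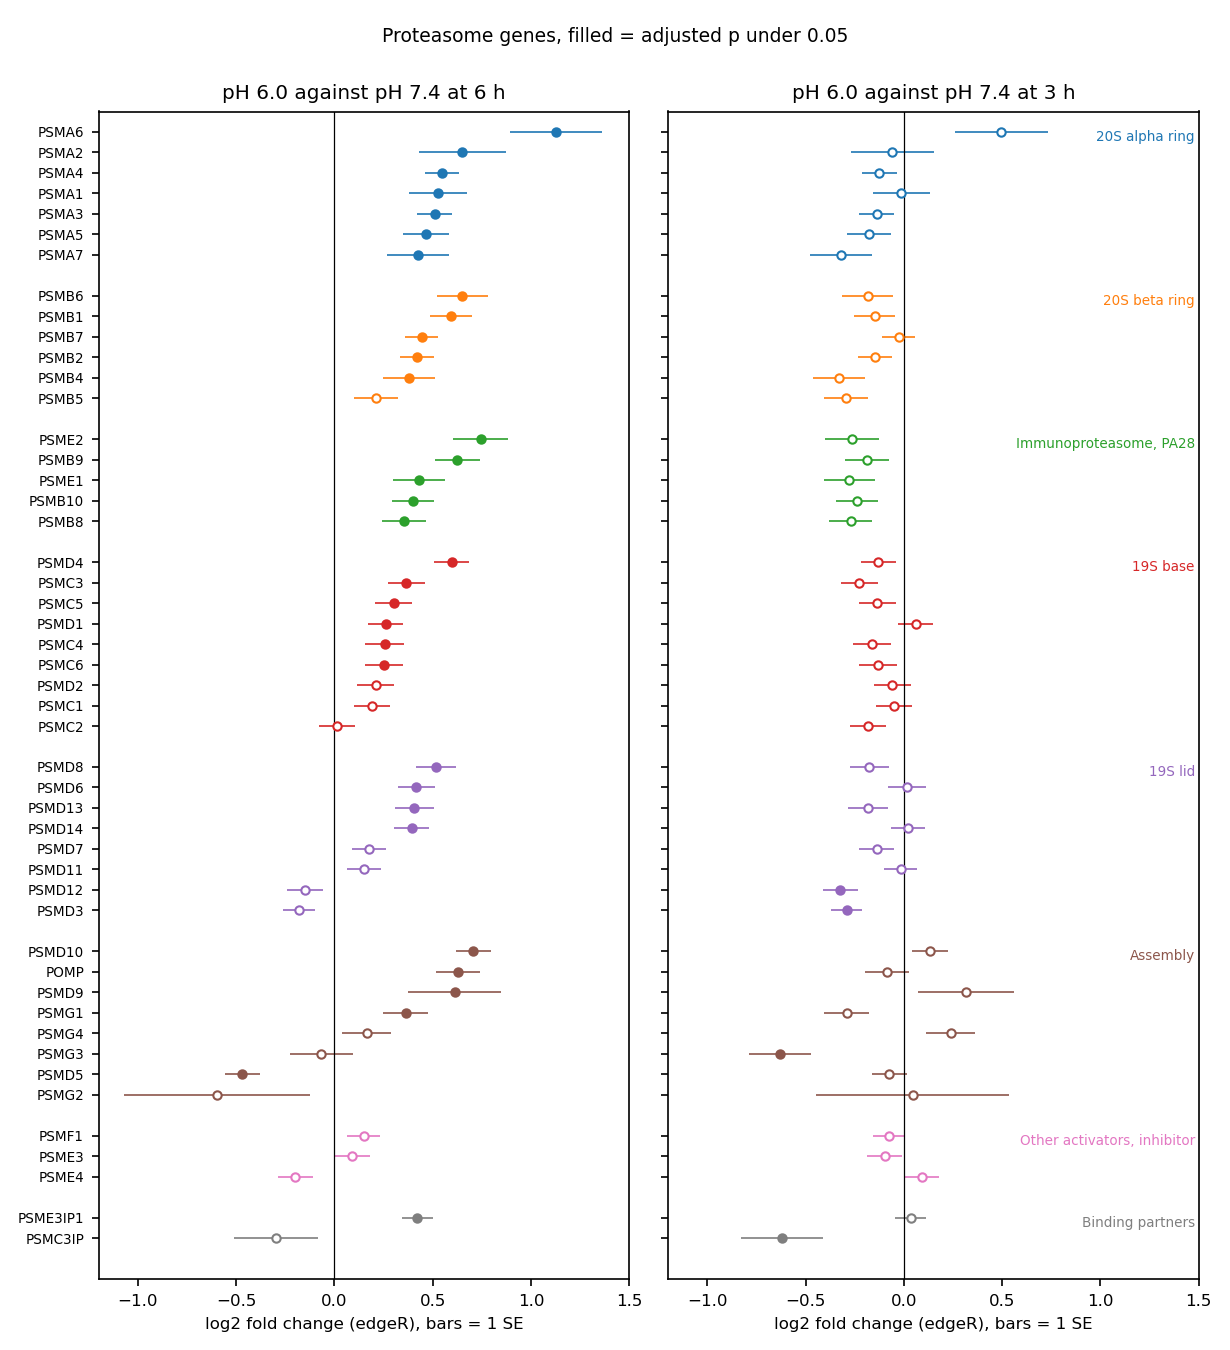
Log2 fold change of pH 6.0 over pH 7.4 for the 48 tested genes by subgroup (rows), at 6 h on the left and at 3 h on the right. Points are edgeR estimates, bars are 1 standard error, and filled points have an adjusted p under 0.05: 33 at 6 h and 4 at 3 h.

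At 3 h few proteasome genes differed between the pH groups. None rose and 4 fell by edgeR, where 9.53% of all tested genes rose, 9.26% fell and 18.8% changed in either direction. At an unadjusted p under 0.05 edgeR had 1 higher and 10 lower, and DESeq2 called 0 higher and 3 lower. The median log2 fold change was -0.14, against 0.00 over all genes, and 5 of 48 had separate pH groups, against 33.0% of all genes. Changes over all genes went with length here too, from a median of -0.12 in the second-shortest length class to 0.17 in the longest. With the length offset 6 of the 48 fell, where 11.1% of all genes fell. The median of the 48 was then -0.10, against -0.02 over all genes. PSMG3, an alpha-ring chaperone, had 22.1, 13.5 and 17.9 CPM in the pH 6.0 libraries, against 34.0, 25.7 and 23.3 CPM in the pH 7.4 libraries (-0.63 ± 0.16, adjusted p = 0.00968). PSMD12 of the lid had 44.7, 43.5 and 43.8 CPM in the pH 6.0 libraries, against 61.4, 48.7 and 54.8 CPM in the pH 7.4 libraries (-0.32 ± 0.09, adjusted p = 0.0149). PSMD3, also of the lid, had 118, 104 and 116 CPM in the pH 6.0 libraries, against 149, 124 and 141 CPM in the pH 7.4 libraries (-0.29 ± 0.08, adjusted p = 0.0144). In these 3 genes every pH 6.0 library was below every pH 7.4 library. PSMC3IP, the recombination factor, had 4.04, 3.23 and 3.51 CPM in the pH 6.0 libraries, against 6.69, 5.78 and 3.99 CPM in the pH 7.4 libraries, with overlapping groups (-0.62 ± 0.21, adjusted p = 0.041). Without pH 7.4 replicate 1, edgeR called 0 genes (1 higher and 3 lower at an unadjusted p under 0.05), with adjusted p of 0.0646 for PSMG3, 0.113 for PSMD12, 0.0859 for PSMD3 and 0.231 for PSMC3IP. Without pH 7.4 replicate 2 the count was 7, and without pH 6.0 replicates 1, 2 or 3 it was 16, 1 or 2. The median over the 48 genes was -0.06 without pH 7.4 replicate 1, -0.21 without pH 6.0 replicate 1 and -0.09 without pH 6.0 replicate 2.

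Single libraries stood apart at 3 h. Over the 42 genes with a mean of at least 10 CPM, the median distance of a library from each gene's mean was 0.07, -0.21 and -0.10 (log2) in the pH 6.0 libraries and 0.17, -0.07 and 0.07 in the pH 7.4 libraries. At 6 h it was 0.24, 0.21 and 0.16 at pH 6.0, and -0.09, -0.12 and -0.27 at pH 7.4. So the 3 h groups overlapped in these medians and the 6 h groups did not. At 3 h the median of the 5 immunoproteasome and PA28 genes ran from -0.31 to 0.15 at pH 6.0 and from 0.04 to 0.35 at pH 7.4.

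**Figure D2:**
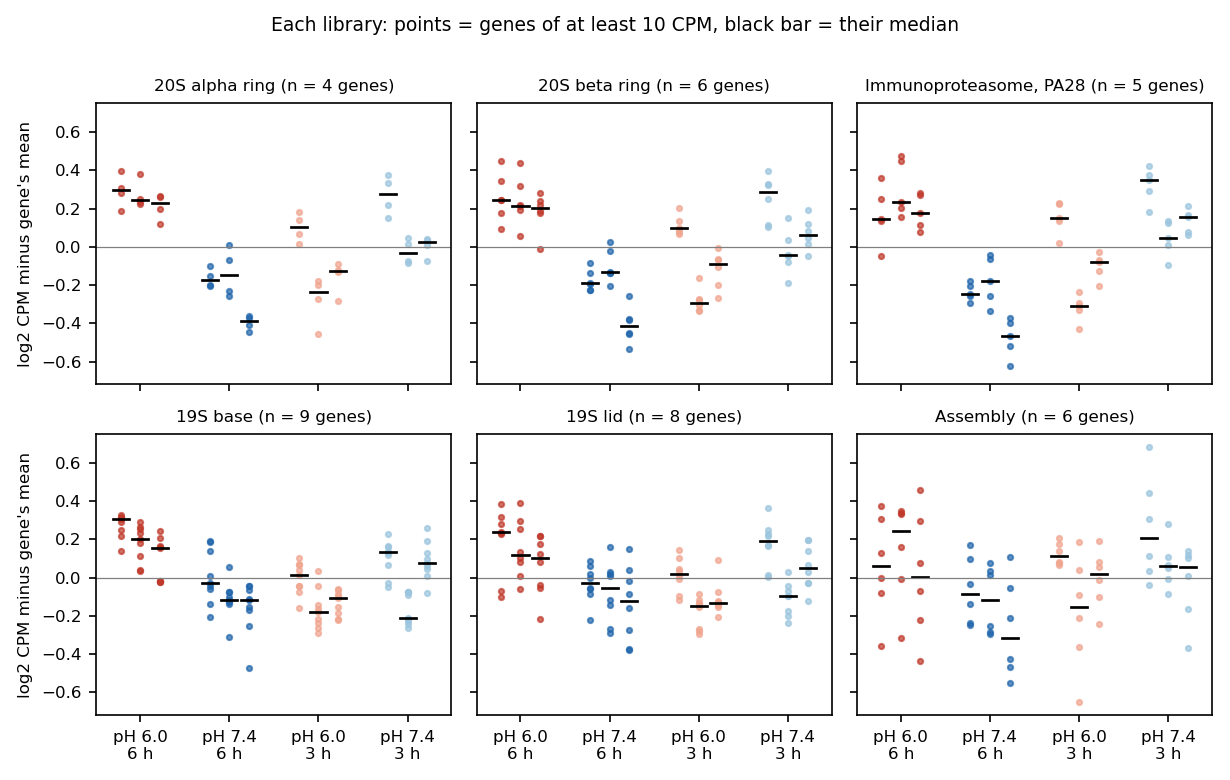
Log2 CPM minus the gene's mean over 12 libraries (y axis), for genes of at least 10 CPM in 6 subgroups (panels) and the 12 libraries by group (x axis). Points are genes and black bars their median in a library. In the alpha-ring panel the medians are 0.23 to 0.30 at pH 6.0 and -0.39 to -0.15 at pH 7.4 after 6 h, and the 3 h groups overlap.

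Between 3 h and 6 h at pH 6.0, 17 of the 48 genes rose, 1 fell and 30 were not called, where 8.64% of all genes rose, 10.9% fell and 19.5% changed either way. The median log2 fold change of 6 h over 3 h was 0.26 against -0.02 over all genes, and 24 of 48 had separate times, against 35.6% of all genes. In the core 6 of 13 rose, in the base 4 of 9, in the lid 3 of 8 and in the immunoproteasome subgroup 2 of 5. PSMC3 had the smallest p among those that rose in the base, with 182, 179.9 and 165 CPM at 6 h against 139.6, 125 and 126 CPM at 3 h (0.43 ± 0.10, adjusted p = 0.00238). PSMD14 had 119.6, 112 and 106 CPM at 6 h against 94.4, 84.2 and 79.4 CPM at 3 h (0.39 ± 0.09, adjusted p = 0.00302). PSMA4 had 171, 153 and 156 CPM at 6 h against 136, 114 and 119 CPM at 3 h (0.38 ± 0.09, adjusted p = 0.00346). In all 3 the 6 h libraries were above the 3 h libraries. PSMD5 was again the gene that fell, with 33.2, 34.1 and 31.5 CPM at 6 h against 44.8, 43.8 and 48.5 CPM at 3 h (-0.47 ± 0.09, adjusted p = 0.000682). The count of 18 called genes was 29 without pH 6.0 replicate 1 of 3 h, 7 without replicate 2 and 9 without replicate 3, and 10 without pH 6.0 replicate 1 of 6 h.

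Between 3 h and 6 h at pH 7.4, 21 of the 48 fell and 1 rose, where 14.4% of all genes fell, 17.2% rose and 31.6% changed either way. The median log2 fold change of 6 h over 3 h was -0.27 against -0.02 over all genes, and 25 of 48 had separate times, against 43.4% of all genes. All 5 immunoproteasome and PA28 genes fell, as did 5 of 6 beta-ring genes and 4 of 7 alpha-ring genes, with 1 of 9 base genes and 3 of 8 lid genes. With the length offset 3 of 5 immunoproteasome and PA28 genes, 0 of 6 beta-ring and 1 of 7 alpha-ring genes fell. So did 1 of 9 base and 2 of 8 lid genes. The median over the 48 was then -0.15, and 12.2% of all genes fell and 13.7% rose. Differences between the subgroups were not tested. PSMB9 had 46.6, 45.3 and 41.3 CPM at 6 h against 69.9, 57.4 and 64.1 CPM at 3 h (-0.52 ± 0.11, adjusted p = 0.0014). PSMB8 had 72.6, 76.3 and 65.5 CPM at 6 h against 112, 94.8 and 100.0 CPM at 3 h (-0.52 ± 0.11, adjusted p = 0.0015). PSMD4, the base gene that fell, had 116, 108 and 96.7 CPM at 6 h against 157, 128 and 147 CPM at 3 h (-0.42 ± 0.09, adjusted p = 0.00106). The times did not overlap in these 3. PSME4 was the gene that rose, with 142, 136 and 155 CPM at 6 h against 105, 115 and 113 CPM at 3 h (0.38 ± 0.09, adjusted p = 0.00275). Over all genes the median ran between -0.25 in the second-shortest length class and 0.35 in the longest. With the length offset 9 of 48 proteasome genes fell and 0 rose by edgeR, where 12.2% of all genes fell and 13.7% rose. At an unadjusted p under 0.05 it was 16 and 0 proteasome genes, and PSME4 was no longer called (adjusted p = 0.205). The 22 called genes became 6 without pH 7.4 replicate 1 of 3 h, and 14 or 7 without pH 7.4 replicate 1 or 3 of 6 h.

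The estimates were positive at pH 6.0 and negative at pH 7.4 in 37 of the 48 genes, against 25.3% of all genes. Both were called in 11 of 48, against 1.35% of all genes. Neither count was repeated with the length offset. No library is shared between these time comparisons. The interaction, the pH effect at 6 h minus that at 3 h, tests the difference itself. It was higher in 28 genes and lower in 1, where it was higher in 13.1% of all genes, lower in 16.3% and called either way in 29.4%. The median was 0.52 against -0.03 over all genes. All 6 beta-ring genes and all 5 immunoproteasome and PA28 genes were called, with 4 of 7 alpha-ring genes, 5 of 9 base genes and 4 of 8 lid genes. PSME2 had the largest called value (1.01 ± 0.20, adjusted p = 0.00162), with PSMB6 (0.83 ± 0.18, adjusted p = 0.00226) and PSMB9 (0.81 ± 0.16, adjusted p = 0.000849) next. PSMB5, which was not called at either time alone, had 0.51 ± 0.16, adjusted p = 0.0198. That call was lost with the length offset (0.0565) and without pH 6.0 replicate 2 of 3 h (0.0576), pH 7.4 replicate 1 of 3 h (0.0543) or pH 7.4 replicate 3 of 6 h (0.0633). PSMD5 was the lower one (-0.39 ± 0.13, adjusted p = 0.0223), and its adjusted p lay between 0.0618 and 0.0857 without pH 6.0 replicate 3 or pH 7.4 replicate 3 of 3 h, or without pH 6.0 replicate 1 or 3 or pH 7.4 replicate 1 of 6 h. With no filter it was 0.0815. Over all genes the interaction median ran from 0.35 in the second-shortest length class to -0.49 in the longest. With the length offset 26 proteasome genes were higher and 1 lower, where 12.9% of all genes were higher and 9.81% lower. The median of the proteasome genes was then 0.42, against 0.03 over all genes.

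**Figure D3:**
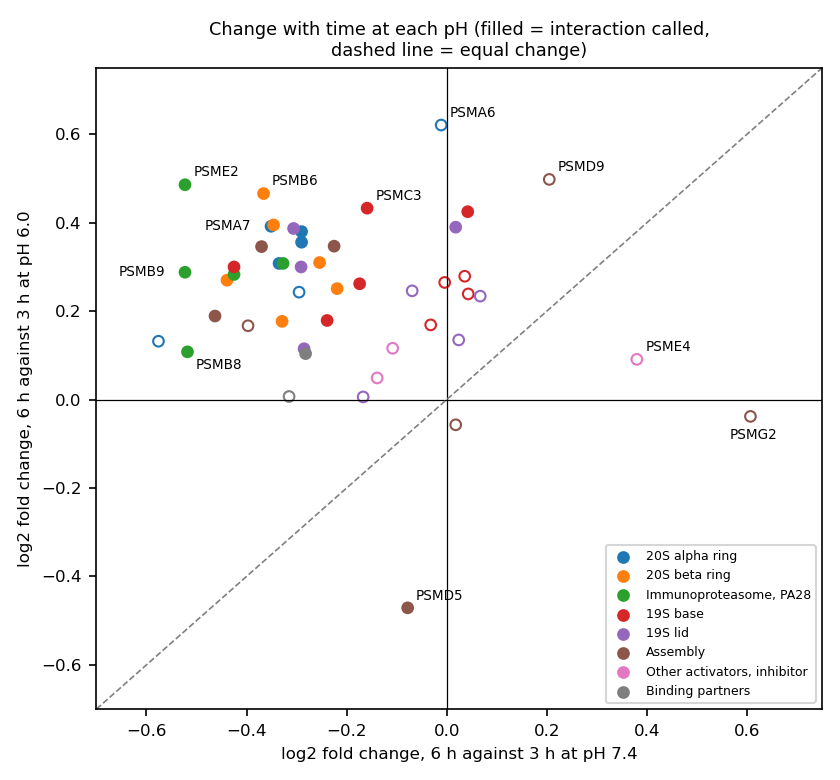
Log2 fold change of 6 h over 3 h at pH 6.0 (y axis) against that at pH 7.4 (x axis) for the 48 tested genes, coloured by subgroup. Filled points have an interaction with an adjusted p under 0.05, and the dashed line marks equal change. The upper left, up with time at pH 6.0 and down at pH 7.4, holds 37 of the 48.

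The balance of transcripts for the immune and the constitutive active subunits was read per length. These are ratios of RNA, and protein was not part of the data used here. The summed CPM per kilobase of PSMB8, PSMB9 and PSMB10, divided by that of PSMB5, PSMB6 and PSMB7, was 0.432, 0.515 and 0.484 in the pH 6.0 libraries and 0.468, 0.479 and 0.500 in the pH 7.4 libraries at 6 h. At 3 h it was 0.534, 0.480 and 0.510 at pH 6.0 and 0.543, 0.559 and 0.562 at pH 7.4. The 6 h groups overlapped and the 3 h groups did not, where the nearest libraries stood at 0.534 and 0.543. Of the single pairs at 3 h, only PSMB10 to PSMB7 was apart, at 0.165 to 0.172 at pH 6.0 and 0.189 to 0.208 at pH 7.4. PSMB8 to PSMB5 and PSMB9 to PSMB6 overlapped between the pH groups at 3 h. Both sums moved: the immune sum was 116 ± 9.02 at pH 6.0 and 86.9 ± 6.88 at pH 7.4 after 6 h, and the constitutive sum 244 ± 9.07 at pH 6.0 and 180.5 ± 19.1 at pH 7.4 (CPM per kilobase, SD, n = 3 each). Of the single pairs, PSMB8 to PSMB5 averaged 1.23 ± 0.162 at pH 6.0 and 1.12 ± 0.0775 at pH 7.4 after 6 h. PSMB9 to PSMB6 averaged 0.442 ± 0.0541 at pH 6.0 and 0.449 ± 0.0168 at pH 7.4, and PSMB10 to PSMB7 0.176 ± 0.00962 at pH 6.0 and 0.182 ± 0.00985 at pH 7.4. For the PA28 genes, PSME1 to PSME2 was 2.90, 2.70 and 3.35 at pH 6.0 and 3.56, 3.86 and 3.64 at pH 7.4, with no overlap. With 3 libraries against 3 an exact permutation test cannot go below a two-sided p of 0.1, and no test was made on these ratios.

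**Figure D4:**
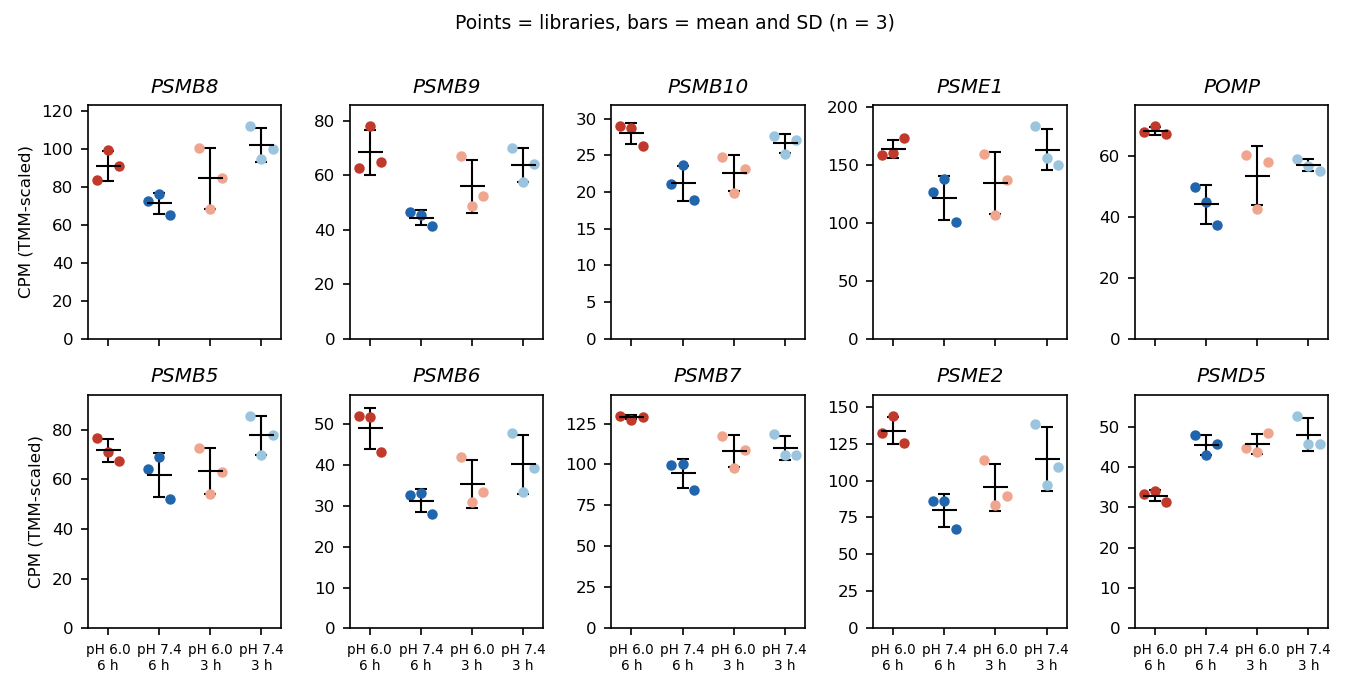
TMM-scaled CPM (y axis, from 0) of the immunoproteasome and PA28 genes, their constitutive counterparts, POMP and PSMD5 in the 4 groups (x axis). Points are libraries, and bars show mean and SD of 3. At 6 h the pH 6.0 points lie above the pH 7.4 points in 8 of the 10 panels, overlap in PSMB5, and lie below in PSMD5.

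Levels per length, averaged over the 12 libraries, spread widely between genes. PSMA7 was the highest, at 185 CPM per kilobase, then PSME1 at 128, PSMB7 at 112, PSMB1 at 102 and PSMD4 at 101. The catalytic PSMB8 stood at 64.7, above PSMB5 at 53.0 and PSMB6 at 46.2, while PSMB9 and PSMB10 stood at 21.7 and 20.2. Among the chaperones PSMD10 and POMP were at 41.6 and 39.1 and PSMD5 at 12.5. A few obligate subunits were far below their ring partners, with PSMA1 at 6.01, PSMA2 at 0.775 and PSMA6 at 0.727 CPM per kilobase. In GENCODE 29, which is not the authors' annotation, exons of other genes cover 24.7% of the exonic bases of PSMA1, 34.6% of PSMA2 and 14.1% of PSMA6. They also cover 34.8% of PSMB10 and 22.6% of PSMD9. Cover by exons of the same strand is 24.7% in PSMA1, 14.6% in PSMA2, 14.1% in PSMA6, 34.8% in PSMB10 and 19.9% in PSMD9. From the opposite strand alone, exons of other genes cover 75.8% of PSMC1, 30.7% of PSMD7, 29.9% of PSMC3IP and 20.6% of PSMB8. In the same way they cover 19.5% of PSMC5, 16.7% of PSMG2, 15.0% of PSMG4 and 10.8% of PSMD1. The authors' counting of such bases, by strand or not, is not given in the sources used, so levels and fold changes of these genes are uncertain, as are the ratios above that use PSMB8 and PSMB10. Pseudogenes of 17 proteasome genes held at most 4.57% of their gene's counts (PSMA2).

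Genes that work with the proteasome moved in both directions. Of 34 ubiquitin and proteasome partners, 16 rose and 5 fell at pH 6.0 after 6 h, where 21.9% of all genes rose and 25.1% fell, with a median of 0.10 against 0.00 over all genes. ZFAND2A, a proteasome-associated stress gene, averaged 48.3 ± 2.18 CPM at pH 6.0 and 20.9 ± 2.14 CPM at pH 7.4 (1.21 ± 0.11, adjusted p = 4.93e-09; SD, n = 3 each here and below). MIDN, a ubiquitin-independent substrate carrier, averaged 431 ± 34.2 CPM at pH 6.0 and 258 ± 21.7 CPM at pH 7.4 (0.74 ± 0.08, adjusted p = 1.35e-07). Both were among the genes of the list with the smallest p of those that rose. The smallest p among those that fell belonged to NPLOC4, a cofactor of the VCP unfoldase (-0.70 ± 0.08, adjusted p = 2.18e-07), DDI2, the protease that activates NFE2L1 (-0.81 ± 0.10, adjusted p = 1.19e-06), and UBE3C, a proteasome-bound ligase (-0.60 ± 0.08, adjusted p = 1.28e-06). NFE2L1 itself had 246 ± 5.81 CPM at pH 6.0 and 249 ± 16.5 CPM at pH 7.4 after 6 h (-0.02 ± 0.08, adjusted p = 0.858). After 3 h it had 235 ± 14.5 CPM at pH 6.0 and 189 ± 13.8 CPM at pH 7.4, and was called higher (0.31 ± 0.08, adjusted p = 0.00786). At 3 h 5 of the 34 rose and 3 fell, near the 9.53% and 9.26% of all genes.

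Of 14 antigen processing genes, 9 rose and 0 fell at pH 6.0 after 6 h, with a median of 0.27, where 21.9% of all genes rose and 25.1% fell. After 3 h 2 rose and 0 fell, where 9.53% of all genes rose and 9.26% fell. DESeq2 gave the same counts, and at an unadjusted p under 0.05 both tools had 1 lower at 6 h and 0 at 3 h. IRF1, a transcription factor known to raise immunoproteasome genes, averaged 95.0 ± 8.05 CPM at pH 6.0 and 49.5 ± 0.853 CPM at pH 7.4 after 6 h (0.94 ± 0.09, adjusted p = 3.13e-08). It was also higher after 3 h, at 63.8 ± 4.26 CPM in pH 6.0 libraries and 49.2 ± 6.00 CPM in pH 7.4 libraries (0.38 ± 0.09, adjusted p = 0.00751). B2M, the light chain of class I molecules, averaged 1897 ± 156 CPM at pH 6.0 and 1251 ± 123 CPM at pH 7.4 after 6 h (0.60 ± 0.10, adjusted p = 2.93e-05), and PDIA3, of the peptide loading complex, 578 ± 24.3 CPM at pH 6.0 and 410.0 ± 23.9 CPM at pH 7.4 (0.50 ± 0.09, adjusted p = 5.54e-05). TAP1, the close neighbour of PSMB9, was not called, with 0.11 ± 0.07 against 0.62 ± 0.11 for PSMB9. The difference between these neighbours was not tested.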

How the data were processed

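RNA of 12 T84 libraries in 4 groups of 3 was analysed from the deposited tables. Per the submitters' processing notes the authors used STAR, CASAVA and build hg19. Their versions, the annotation, the counting program and its strand setting: not given in the sources used here. The authors deposited a read count and an RPKM value per gene. The RPKM served only to recover gene lengths, which reproduced 100.0% of the RPKM values within a relative tolerance of 1e-06. Symbols came from a names table and GENCODE 29, for 45342 of 48162 identifiers, and promoters from RefSeq (GRCh38.p14). Counts were fitted with edgeR 4.0.16 in R 4.3.3 (TMM factors, default filter, robust quasi-likelihood F tests over all 12 libraries in 4 groups, 8 residual degrees of freedom), with Benjamini-Hochberg adjustment over all 15630 genes tested and a threshold of 0.05. Values after ± are standard errors for log2 fold changes and SD elsewhere. CPM use TMM-scaled totals. Totals were 13912532 to 24331032 counts, the common biological coefficient of variation was 9.29%, and no pair of libraries within a group agreed within sampling noise (chi-square over degrees of freedom 5.40 to 19.5). Intervals and limits cover counting error or the spread between libraries only.

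The genes and lists were chosen with earlier results of these data known. Values per library are given for up to 2 higher and 2 lower genes of each subgroup with the smallest p for pH at 6 h, for PSMB5 to PSMB10, PSME1, PSME2 and POMP, and, chosen after their values were seen, for PSMA6, the genes called at 3 h and those named for time. From each partner list up to 3 higher and 3 lower genes are named, and NFE2L1, with TAP1 added later. A named gene of the partner lists is not reported here. The fit was checked on simulated counts that held known changes. Alternatives were a filter of 5 CPM in 3 libraries or none, DESeq2 1.42.0, median-of-ratios factors or library totals alone, a fit without the groups outside a comparison, a replicate block, a length offset (natural splines, 5 degrees of freedom per library), and each library left out in turn.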

Additional observations from a re-analysis of the deposited data

Results flagged for a closer look

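The pH effect at 6 h differed from that at 3 h, by edgeR's interaction term with Benjamini-Hochberg adjustment over all genes, in 29 proteasome genes. The values are the log2 pH effect at 6 h minus that at 3 h. The alpha-ring genes were PSMA7 (0.74), PSMA4 (0.67), PSMA3 (0.65) and PSMA5 (0.64). The beta-ring genes were PSMB6 (0.83), PSMB1 (0.74), PSMB4 (0.71), PSMB2 (0.56), PSMB5 (0.51) and PSMB7 (0.47). Of the immunoproteasome and PA28 genes these were PSME2 (1.01), PSMB9 (0.81), PSME1 (0.71), PSMB10 (0.64) and PSMB8 (0.63). The base genes were PSMD4 (0.72), PSMC3 (0.59), PSMC5 (0.44), PSMC4 (0.42) and PSMC6 (0.38). The lid genes were PSMD8 (0.69), PSMD13 (0.59), PSMD6 (0.40) and PSMD14 (0.37). The assembly genes were POMP (0.72), PSMG1 (0.65) and PSMD10 (0.57), and the binding partner was PSME3IP1 (0.39). PSMD5, the base chaperone, was the one with a negative value (-0.39). Adjusted p ran from 0.000275 (PSMD4) to 0.0373 (PSMC6). With the length offset PSMC4 (adjusted p = 0.128), PSMA7 (0.066) and PSMB5 (0.0565) lost the call. Without pH 6.0 replicate 2 of 3 h PSMC4 (0.0709), PSMC5 (0.0581), PSMC6 (0.0736), PSMB5 (0.0576), PSMD6 (0.0824) and PSMD14 (0.0562) lost it. Leaving out other single libraries also ended some of these calls. With 3 libraries a group, no single library was tested as an outlier.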

How the results depend on the processing

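Of the counts of proteasome genes called, those for pH at 6 h (33) and for the interaction (29) stayed within 1.5 times under every alternative run, with 23 to 37 and 23 to 35 when 1 library was left out. At 6 h the lowest count, 23, came without pH 7.4 replicate 3. For pH at 3 h (4 called) the count was 12 with no filter, 1 in a fit of only the groups compared, 8 with the replicate block and length offset together, and 0 to 16 with 1 library left out. For time at pH 6.0 (18 called) it was 11 with library totals alone, where the median of all genes was -0.104 against -0.019 with TMM factors, then 30 with the replicate block and length offset, and 7 to 29 with 1 library left out. For time at pH 7.4 (22 called) it was 9 with the length offset, 13 with the replicate block and length offset, and 6 to 27 with 1 library left out. The cause was not tested. No called gene changed sign under any alternative run. Fits with the replicate block called 6, 34, 26, 25 and 31 genes for pH at 3 h, pH at 6 h, time at pH 6.0, time at pH 7.4 and the interaction. The labels do not say that the numbers pair the libraries. Over all pairs of groups, deviations of same-numbered libraries correlated at -0.127 to 0.226. In 14 of 36 comparisons of a library with another group it correlated best with its own number. Between pH 6.0 and pH 7.4, same-numbered libraries correlated at 0.045 to 0.226 at 3 h and at -0.028 to 0.144 at 6 h. Whether libraries of the same time are paired cannot be told from these values. The block with the length offset and the count over the 42 genes of at least 10 CPM (28 higher and 1 lower at 6 h) were chosen after seeing the data. Depth limits PSMG2, PSMA2, PSMA6 and PSMD9, with at most 115 counts in any library.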
